A study of Mus musculus with 11 samples.

Results

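Epidermal growth factor (EGF) changed the RNA of many genes in a mouse acinar cell line, and the comparison described here asks how that response differed once Arid1a had been targeted with siRNAs. For each gene the EGF response with Arid1a siRNAs was set against the EGF response with a control siRNA, as a difference of differences over all 11 libraries of the series in 4 groups. Of 23284 listed gene symbols, 13343 had enough reads to be tested. Every library came from 266-6, an established line of mouse pancreatic acinar cells, transfected for 48 hours, starved of serum overnight and then treated for 8 hours. The 2 control libraries (control 1 and 2) received a non-targeting siRNA and the vehicle, 0.1% bovine serum albumin, and 3 libraries (control+EGF 1 to 3) received the same siRNA and EGF at 40 ng/ml. The remaining groups received siRNAs against Arid1a at 25 nM, with the vehicle (siArid1a 1 to 3) or with EGF (siArid1a+EGF 1 to 3). All data thus come from 1 cell line, 1 dose and 1 time point, and since no label describes the replicates as separate cultures, the p-values reflect sample-to-sample spread, which may be technical.

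EGF binds the receptor tyrosine kinase EGFR and signals through RAS, RAF, MEK and ERK to transcription factors of the immediate early, AP-1 and ETS families. ERK also switches on its own inhibitors, among them the Sprouty proteins and the dual-specificity phosphatases, and this negative feedback limits the signal. ARID1A is a subunit of the BAF form of SWI/SNF, a chromatin remodelling complex that uses ATP to shift nucleosomes and keeps many enhancers open. In the pancreas, EGFR signalling is known to drive acinar cells towards a duct-like state, in which digestive enzyme genes fall and ductal genes such as Sox9 rise.

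Arid1a itself was measured first. It stood at 292 and 399.9 CPM (counts scaled by normalised library size) in the control libraries, 308, 263 and 300.2 CPM with control siRNA and EGF, 151, 157 and 127 CPM with Arid1a siRNAs and 145, 122 and 152 CPM with both. All 6 libraries with Arid1a siRNAs lay below all 5 with control siRNA, by 2.38-fold without EGF and 2.08-fold with it, so the transcript was lowered and not removed. Its EGF response was not called different between the siRNAs, with a difference of 0.20 ± 0.18 (log2, SE) and an edgeR adjusted p of 0.846; in an added fit with the component described next, it was called (adjusted p = 0.0338). Within groups, 1 principal component held 55.3% of the variance between libraries and set control 1, control+EGF 2, siArid1a 3 and siArid1a+EGF 2 apart from the other 7 libraries, which no label explains. The component was computed from these same libraries, so adding it to the fit lowers the residual spread by construction. Calls made only in that fit are descriptive and add no support. Counted reads ranged from 10279763 to 19773007 per library. Of 12 acinar markers, 10 were tested, with Ctrb1, Cela1, Cpa1, Ptf1a and Rbpjl abundant, Cpb1 under 1 CPM and Amy2a5 at 0 in every library, and their summed level was 15840.0 to 17858, 14269 to 15540.0, 15604 to 18516 and 15047 to 16815 CPM in the groups in the order above. Of the markers of other cells, Cd3e (immune), Cdh5 (endothelial), Ins1, Ins2 and Sst (islet) and Lum (fibroblast) were at 0 throughout, whereas Pdgfrb and the neuroendocrine Chga were abundant. The sum of 5 islet markers, nearly all of it Chga, was 701 to 751 CPM in control libraries and 1112 to 1158 CPM with EGF, against 626 to 767 and 794 to 839 CPM with Arid1a siRNAs, and its part in the results was not tested. The difference for Chga itself (-0.39) was not called in edgeR (adjusted p = 0.097) and was called in DESeq2. In bulk RNA, fewer cells of a type and less RNA per cell cannot be told apart.

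The EGF response was weaker with Arid1a siRNAs at nearly every gene where a difference was called. Of 13343 genes, 126 (0.944%) had a different EGF response by edgeR's quasi-likelihood test at a Benjamini-Hochberg adjusted p under 0.05. In 124 of these the response was smaller or opposite with Arid1a siRNAs, and the exceptions were Usp43 and 1110008F13Rik. The difference was positive in 75 genes (0.562%) and negative in 51 (0.382%), positive being a weaker fall or a stronger rise. These shares are the background for counts of called list members below. A short list with 0 calls is not set apart by that. Responses and differences are given as log2 fold changes, with the response under control siRNA first and the SE of the difference after ±. Weakened rises numbered 51, of which 40 were reduced, 8 lost and 3 reversed. Weakened falls numbered 73, of which 50 were reduced, 19 lost and 4 reversed. Reduced means that EGF changed the gene the same way with both siRNAs, lost that its change was called with control siRNA only, and reversed that it was called in opposite directions. When that component was added to the fit, an alternative chosen after seeing the data, 840 genes were called, among them all 126. Of the 840, 230 were lost, 524 reduced and 29 reversed. Another 12 were enhanced, with a larger response of the same direction with Arid1a siRNAs, and 43 gained, called with Arid1a siRNAs only. The remaining 2 fell in no class. By other tools, 178 genes were called with DESeq2 and 113 with limma-voom, and 1297 (9.72%) had an unadjusted p under 0.05 in edgeR. The difference exceeded 2-fold in 31 genes and was under 1.5-fold in 48. Without control 1 (63 genes), control+EGF 1 (55 genes), control+EGF 3 (65 genes), siArid1a 1 (76 genes), siArid1a 2 (81 genes), siArid1a+EGF 1 (63 genes) or siArid1a+EGF 3 (78 genes), the count of 126 fell by more than 1.5 times. 40 genes were called whichever of the 11 libraries was left out, and all 126 had the same sign of the difference in each of those fits.

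**Figure D1:**
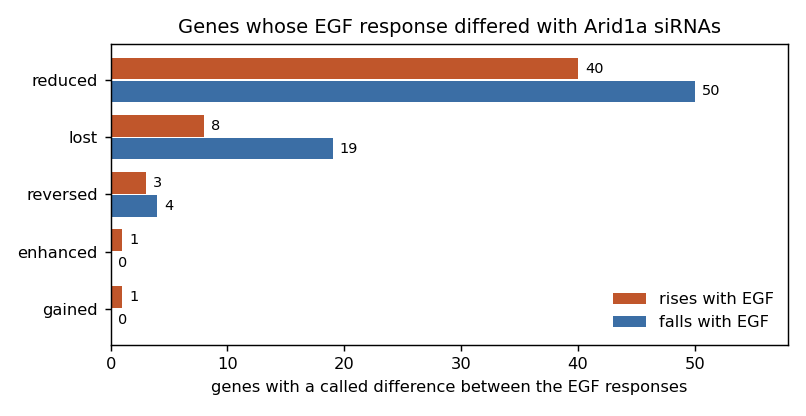
Number of genes with a called difference (x axis) by what became of the EGF response with Arid1a siRNAs, for genes that EGF raised and lowered. The reduced class holds 40 rises and 50 falls, the lost class 8 and 19, the reversed class 3 and 4, and the enhanced and gained classes 1 rise each.

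The loss was partial at most of these genes, and the estimated response was smaller with Arid1a siRNAs at most, but not all, responding genes. These estimates share the same 11 libraries and are described without a test. The 51 weakened rises had a median log2 fold change of 1.37 with control siRNA and 0.68 with Arid1a siRNAs, and the 73 weakened falls had medians of -1.004 and -0.39. Reduced rises retained a median of 56.9% of the control log2 response (range 29.9% to 75.4%), and reduced falls 45.4% (26.7% to 68.99%). With control siRNA, EGF raised 2237 genes (16.8%) and lowered 2507 (18.8%), and with Arid1a siRNAs it raised 1734 (13%) and lowered 1385 (10.4%). Among genes raised with control siRNA, the estimate was larger there in 86.9% (median 0.45 against 0.31), and among genes lowered in 94.8% (median -0.47 against -0.26). Choosing genes by their call with control siRNA favours high estimates there, so the same was counted for genes chosen by their call with Arid1a siRNAs. The control response was the larger in 68.5% of those rises (median 0.46 against 0.38) and in 76.4% of those falls (-0.54 against -0.40). Across the 13343 genes the responses, which share no library, had a Pearson r of 0.808, a description across genes that are not independent replicates. By size of the control response, of 86 genes raised by a log2 of 2 or more with control siRNA, 15 (17.4%) had a called difference, against 2 of 1256 raised by less than 0.5. For genes that fell, the corresponding counts were 10 of 36 (27.8%) and 10 of 1341. These bins use the control estimate, which is part of the difference. Binned by the response with Arid1a siRNAs, 4 of 42 rises of 2 or more were called (9.52%) against 10 of 1128 under 0.5 (0.886%). Of falls, 0 of 6 of 2 or more were called, 11 of 97 between 1 and 2 (11.3%) and 24 of 887 under 0.5 (2.71%).

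Among the negative feedback genes of the ERK pathway, the rises of Dusp6, Spry1, Spry2 and Errfi1 were reduced. EGF raised 12 members of the list with control siRNA and 14 with Arid1a siRNAs, and the reduced genes were 4 of 23 tested members, with no member called the other way. Of all tested genes, EGF raised 16.8% with control siRNA and 13% with Arid1a siRNAs, and 0.944% had a called difference. The list was chosen with earlier results of these data known. DUSP6 is a phosphatase that switches off ERK in the cytoplasm. Dusp6 was measured at 15.4 and 18.3 CPM with control siRNA and 145, 132 and 150.0 CPM after EGF, against 18.6, 19.4 and 19.4 CPM with Arid1a siRNAs and 86.9, 82.2 and 85.4 CPM with both. The 4 groups did not overlap, the libraries of each group stood close together, and the groups differed mainly after EGF. EGF raised Dusp6 by a log2 of 3.08 with control siRNA and 2.15 with Arid1a siRNAs, a difference of -0.94 ± 0.11 (SE; adjusted p = 0.00149). SPRY1 and SPRY2 are Sprouty proteins, which block receptor tyrosine kinase signalling to RAS and RAF. Spry1 was measured at 9.71 and 8.88 CPM with control siRNA and 78.2, 76.7 and 85.6 CPM after EGF, against 10.6, 13.7 and 13.7 CPM with Arid1a siRNAs and 43.1, 44.3 and 42.5 CPM with both. Again no groups overlapped, and Spry1 was the higher with Arid1a siRNAs before EGF and the lower after it. The log2 response of Spry1 was 3.10 and 1.76, and the difference was -1.34 ± 0.14 (SE; adjusted p = 0.000697), second in size only to that of Wipi1 among called rises of mean log2 CPM 3 or more. Spry2 stood at 36.8 and 34.95 CPM with control siRNA and 169, 171 and 175 CPM after EGF, against 39.3, 38.6 and 41.1 CPM with Arid1a siRNAs and 117, 118 and 117 CPM with both. The difference for Spry2 was -0.69 ± 0.08 (SE; adjusted p = 0.00128), and the 3 libraries with Arid1a siRNAs and EGF lay within 117 to 118 CPM, below all 3 with control siRNA and EGF. Errfi1, which encodes an inhibitor that binds the EGFR kinase domain itself, was singled out after its values were seen. It rose by a log2 of 1.66 and 1.06, with a difference of -0.59 ± 0.10 (SE; adjusted p = 0.012) that was not called without control 1 (adjusted p = 0.0752). Spry4 had a difference as large as that of Dusp6, -0.9998 ± 0.23, on low levels of at most 20.5 CPM, and it missed the threshold (adjusted p = 0.0634), except with the within-group component in the fit (adjusted p = 0.0148). Not all feedback genes moved in this way. Dusp5, which encodes a phosphatase that holds ERK in the nucleus, rose by 2.76 and 2.58, with a difference of -0.18 and a 95% interval of -0.58 to 0.21. In all, 7 members responded to EGF in the same direction with both siRNAs without a called difference, 4 of them with a 95% interval inside 1.5-fold either way, and 5 responded with 1 siRNA only and without a called difference. Over all tested genes, 14.1% fell within that interval and 18.7% responded with 1 siRNA only without a called difference. The median response over all 23 members was 0.42 with control siRNA and 0.50 with Arid1a siRNAs, against -0.03 with control siRNA and -0.01 with Arid1a siRNAs over all tested genes.

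**Figure D2:**
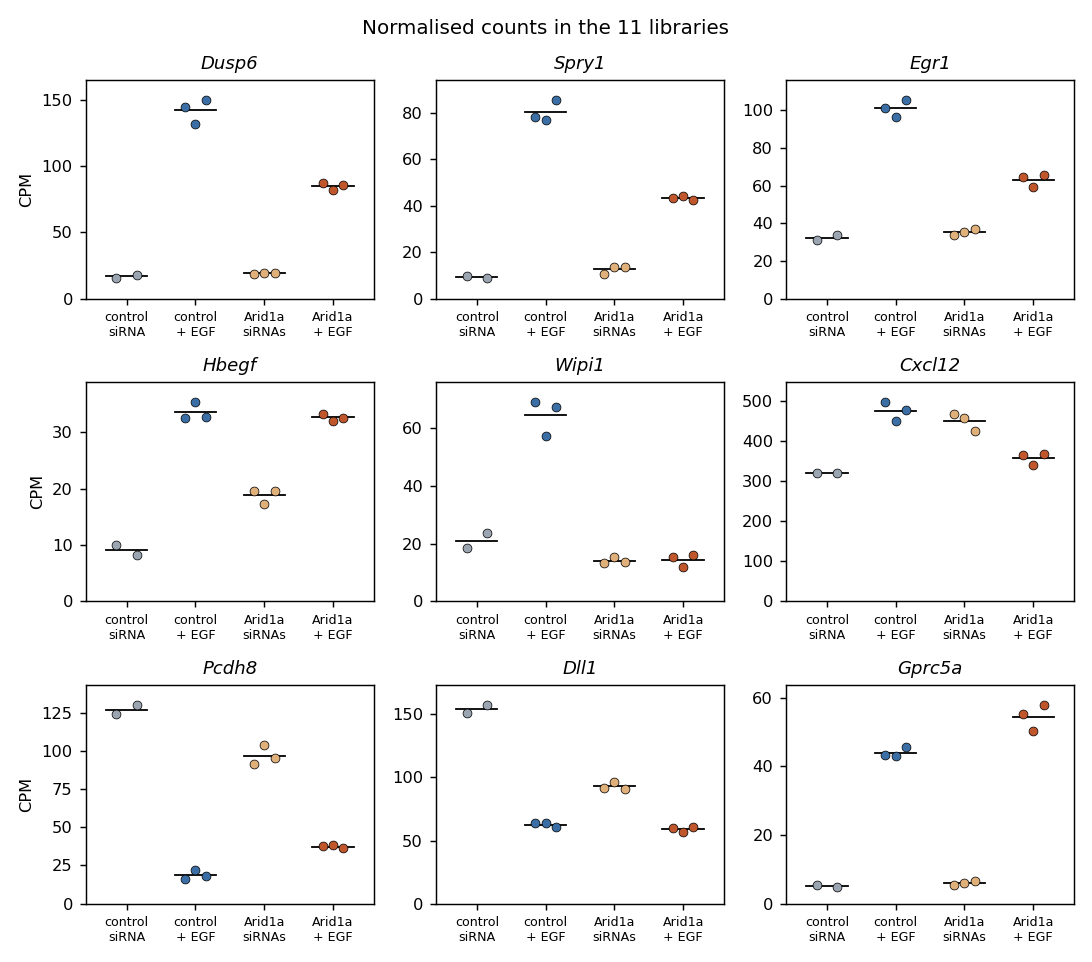
CPM of 9 genes (y axes, each from 0) in each of the 11 libraries (points) by group, with the group mean as a line. Dusp6, Spry1 and Egr1 differ mainly with EGF, Hbegf differs mainly before EGF, Wipi1 responds with control siRNA only, Cxcl12 moves in opposite directions, Pcdh8 and Dll1 fall less with Arid1a siRNAs, and Gprc5a rises by similar factors.

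Transcription factors induced by EGF were reduced in the same direction at Egr1, Klf4, Etv4, Etv5 and Maff, while most immediate early genes had no called difference. EGR1 is a zinc finger factor made within minutes of growth factor signalling. Egr1 was measured at 31.3 and 33.8 CPM with control siRNA and 101, 96.3 and 106 CPM after EGF, against 33.7, 35.2 and 37.2 CPM with Arid1a siRNAs and 64.7, 59.2 and 65.8 CPM with both. The groups without EGF overlapped, and those with EGF did not. The log2 response of Egr1 was 1.64 with control siRNA and 0.84 with Arid1a siRNAs, a difference of -0.80 ± 0.10 (SE; adjusted p = 0.00187). KLF4 is a Krüppel-like factor of epithelial cells. Klf4 was found at 10.5 and 11.4 CPM with control siRNA and 38.7, 32.7 and 41.7 CPM after EGF, against 15.7, 15.1 and 14.5 CPM with Arid1a siRNAs and 25.8, 24.6 and 26.7 CPM with both. Arid1a siRNAs thus went with a higher Klf4 level before EGF and a lower one after it, and no groups overlapped. The difference of the Klf4 responses was -1.02 ± 0.15 (SE; adjusted p = 0.00559). Etv4 and Etv5 encode ETS factors of the PEA3 group, which act downstream of receptor tyrosine kinases. Etv4, at 5.06 and 7.31 CPM in control libraries, rose to 88.01, 86.1 and 97.9 CPM with control siRNA and from 6.53, 8.29 and 8.09 to 54.8, 51.8 and 55.95 CPM with Arid1a siRNAs, the highest log2 response of the called genes that are named here (3.90 and 2.81). Its difference was -1.09 ± 0.18 (SE; adjusted p = 0.0102) and was not called without control 1 (adjusted p = 0.0717). Etv5 rose by 2.11 and 1.32, with a difference of -0.79 ± 0.15 (SE; adjusted p = 0.0221), which was not called without control 1, control+EGF 1, control+EGF 3, siArid1a 1 or siArid1a 2 (adjusted p from 0.0728 to 0.127). MAFF is a small MAF protein that pairs with other leucine zipper factors. Maff reached 36.1, 33.1 and 37.6 CPM with control siRNA and EGF and 37.3, 38.1 and 35.9 CPM with Arid1a siRNAs and EGF, which overlapped, but started from 6.17 and 8.52 against 14.5, 14.4 and 14.01 CPM. Its difference was -0.93 ± 0.16 (SE; adjusted p = 0.0105), not called without control 1 (adjusted p = 0.0761). Klf2, a factor that responds to flow in endothelial cells, was the called member of these lists that EGF lowered. Its log2 response was -0.70 with control siRNA and 0.41 with Arid1a siRNAs, a difference of 1.11 ± 0.24 (SE; adjusted p = 0.0464), and it was not called when any 1 library other than control 2, control+EGF 2 or siArid1a 3 was left out (adjusted p from 0.0522 to 0.224). Of 26 tested ETS and other ERK-induced factors, 3 were called lower and 1 higher, and of 32 immediate early and AP-1 genes, 2 lower and 0 higher. An unadjusted p under 0.05 in edgeR was found for 11 (42.3%) and 5 (15.6%) of them, against 9.72% of all tested genes. 14 immediate early and AP-1 genes rose with EGF under both siRNAs without a called difference, 7 of them within 1.5-fold (14.1% of all tested genes responded within 1.5-fold). The median response of that list was 0.48 with control siRNA and 0.33 with Arid1a siRNAs. Fosl1, which encodes an AP-1 subunit, had too few reads to be tested. Myc, the growth-promoting factor, rose by 0.99 and 0.77, with an interval of the difference of -0.38 to -0.05, and its difference was called with the within-group component in the fit (adjusted p = 0.0234) and not otherwise.

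Of the ligands and receptors, Hbegf rose less and Cxcl12 changed direction, whereas Egfr showed no detectable difference. HBEGF is a membrane-bound ligand of EGFR that is shed to act on neighbouring cells. Hbegf was measured at 10.01 and 8.24 CPM with control siRNA and 32.5, 35.3 and 32.7 CPM after EGF, against 19.6, 17.2 and 19.6 CPM with Arid1a siRNAs and 33.2, 32.03 and 32.6 CPM with both. The levels reached with EGF overlapped, and the groups without EGF were apart: Arid1a siRNAs raised Hbegf before EGF by a log2 of 1.02. Its response was 1.87 and 0.80, a difference of -1.06 ± 0.14 (SE; adjusted p = 0.00187). CXCL12 is a chemokine, the ligand of CXCR4. Cxcl12 was measured at 321 and 321 CPM with control siRNA and 498, 452 and 477 CPM after EGF, against 467, 457 and 427 CPM with Arid1a siRNAs and 365, 340.2 and 369 CPM with both. EGF raised Cxcl12 by 0.57 with control siRNA and changed it by -0.33 with Arid1a siRNAs, a difference of -0.90 ± 0.08 (SE; adjusted p = 0.000194). Without EGF every library with Arid1a siRNAs lay above both control libraries, and with EGF every one lay below its control siRNA counterparts. Egfr rose by 0.61 and 0.65, with a difference of 0.04 and a 95% interval of -0.48 to 0.56. Areg, another EGFR ligand, had too few reads to be tested. In the EGF receptor family, 1 of 8 tested members was called, and in the list of growth factors and cytokines, 1 of 21. None of the 28 core genes from RAS to ERK had a called difference in edgeR or DESeq2 (1 at an unadjusted p under 0.05), at a median response of 0.01 with control siRNA and 0.05 with Arid1a siRNAs. Tnfrsf12a encodes the receptor of the cytokine TWEAK. It rose from 18.5 and 16.9 to 65.7, 75.1 and 72.3 CPM with control siRNA and from 32.9, 32.3 and 34.4 to 80.02, 87.5 and 77.4 CPM with Arid1a siRNAs, so that it was higher with Arid1a siRNAs in both states and rose by the smaller factor (difference -0.70 ± 0.11, adjusted p = 0.00902). Fgfr2 and Insrr, receptor tyrosine kinases that EGF lowered, fell less with Arid1a siRNAs. Fgfr2 started from 21.1, 21.7 and 20.3 CPM with Arid1a siRNAs against 89.3 and 89.8 CPM in control libraries, and its difference (0.53 ± 0.12, adjusted p = 0.0455) was not called when any 1 library was left out (adjusted p from 0.0634 to 0.151). Insrr fell (log2 responses -1.41 and -0.95), with a difference of 0.46 ± 0.09 (SE; adjusted p = 0.0252) that was not called when any 1 library other than control 2, control+EGF 2, siArid1a 2 or siArid1a 3 was left out (adjusted p from 0.0569 to 0.0997).

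Adhesion and matrix genes with weakened responses included protocadherins, a hyaluronan synthase and a collagen. PCDH8 is a protocadherin of the cell surface, and Pcdh8 had the smallest adjusted p of all genes together with Cxcl12. Pcdh8 was measured at 124 and 130.2 CPM with control siRNA and 16.1, 21.8 and 17.9 CPM after EGF, against 91.7, 104 and 95.4 CPM with Arid1a siRNAs and 37.5, 38.5 and 36.1 CPM with both. EGF lowered Pcdh8 in both settings and no groups overlapped, but with EGF the level with Arid1a siRNAs was the higher and without EGF the lower. The response was -2.76 and -1.38, a difference of 1.39 ± 0.13 (SE; adjusted p = 0.000194). Pcdh15, another protocadherin, fell (log2 responses -1.99 and -1.16), with a difference of 0.83 ± 0.13 (SE; adjusted p = 0.00668), and these were 2 of 31 tested cadherins, protocadherins and catenins. HAS2 makes hyaluronan, a long sugar chain of the matrix. Has2 reached 60.3, 48.2 and 62.2 CPM with control siRNA and EGF and 65.6, 58.3 and 66.2 CPM with Arid1a siRNAs and EGF, which overlapped, from 4.91 and 5.37 and from 13.3, 11.98 and 11.9 CPM. The difference of -1.12 ± 0.18 (SE; adjusted p = 0.00734) thus lay in the level before EGF, and it was not called without control 1 (adjusted p = 0.0708). Col15a1, a collagen of basement membrane zones, had the same form, with 26.1, 23.6 and 27.7 and 25.01, 23.5 and 23.3 CPM after EGF from 2.38 and 2.58 and 5.32, 4.55 and 4.79 CPM. Its difference was -1.08 ± 0.18 (SE; adjusted p = 0.0106), not called without control 1 (adjusted p = 0.091). Col18a1, another basement membrane collagen, had log2 responses of -0.41 with control siRNA and 0.01 with Arid1a siRNAs. Its difference (0.42 ± 0.09, adjusted p = 0.0322) was not called when any 1 library other than control 2, control+EGF 2 or siArid1a 3 was left out (adjusted p from 0.0651 to 0.116). GRHL3, a grainyhead factor, maintains epithelial barriers. Grhl3 fell from 78.03 and 66.1 to 15.2, 16.5 and 11.6 CPM with control siRNA and from 52.3, 50.3 and 54.98 to 20.4, 22.6 and 20.6 CPM with Arid1a siRNAs, with a difference of 1.01 ± 0.16 (SE; adjusted p = 0.00673) and no overlap between groups. Vim, which encodes the intermediate filament vimentin, fell slightly with control siRNA (-0.29) and not detectably with Arid1a siRNAs (0.13), a difference of 0.41 ± 0.09 (SE; adjusted p = 0.0464) that was not called when any 1 library other than siArid1a 3 or siArid1a+EGF 3 was left out (adjusted p from 0.0567 to 0.149). Of 18 tested integrins, Itga2, singled out after its values were seen, was called on low levels: 0.101 and 0.143 CPM in control libraries rose to 1.30, 0.925 and 0.769 CPM, against 1.12, 0.614 and 0.609 and 0.704, 0.585 and 0.502 CPM with Arid1a siRNAs (difference -3.31 ± 0.67, adjusted p = 0.0302). It was not called when any 1 library other than control+EGF 3, siArid1a 2 or siArid1a 3 was left out (adjusted p from 0.0506 to 0.169). None of 23 claudin and tight junction genes and none of 23 genes of the urokinase and metalloprotease list was called in edgeR or DESeq2 (2 and 1 at an unadjusted p under 0.05). Plaur, the urokinase receptor, rose by 3.27 and 2.86, with an interval of the difference of -0.99 to 0.17, too wide to place within 1.5-fold.

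EGF lowered the Notch genes Dll1 and Nrarp, and both fell less with Arid1a siRNAs. DLL1 is a ligand of Notch receptors on neighbouring cells, and NRARP is a target gene of Notch signalling that dampens it. Dll1 was 1 of the 40 genes called in every fit that left out a library. Its promoter window is shown because it holds the AP-1 word TGANTCA, as did 5 of 103 windows of called genes (4.85%, against 5.99% of all tested). The window runs from 250 bases before to 50 after the RefSeq start, at chr17:15376883-15377182 on the minus strand of GRCm38.p6, 5′ to 3′, with the word in capitals:
Dll1: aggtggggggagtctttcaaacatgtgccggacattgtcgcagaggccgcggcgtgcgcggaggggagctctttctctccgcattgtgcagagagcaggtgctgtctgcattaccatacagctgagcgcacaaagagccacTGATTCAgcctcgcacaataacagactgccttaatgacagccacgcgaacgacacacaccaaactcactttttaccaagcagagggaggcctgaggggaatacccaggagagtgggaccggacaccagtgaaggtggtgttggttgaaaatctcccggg
The word is its own reverse complement pattern, so both strands match at this place. Dll1 was measured at 151 and 158 CPM with control siRNA and 63.6, 63.8 and 60.5 CPM after EGF, against 91.95, 96.3 and 90.6 CPM with Arid1a siRNAs and 59.7, 57.03 and 60.5 CPM with both. Without EGF, Dll1 was lower with Arid1a siRNAs by a log2 of -0.73, and after EGF the groups almost met. The response was -1.30 and -0.66, a difference of 0.64 ± 0.08 (SE; adjusted p = 0.00177). Nrarp stood at 36.7 and 33.95 CPM with control siRNA and 18.9, 19.8 and 20.1 CPM after EGF, against 38.1, 33.4 and 38.02 CPM with Arid1a siRNAs and 38.95, 34.95 and 34.96 CPM with both. The libraries with control siRNA and EGF stood apart below the other 8 libraries, which overlapped. The response of Nrarp was -0.85 with control siRNA and -0.0033 with Arid1a siRNAs, a difference of 0.85 ± 0.12 (SE; adjusted p = 0.00476). Nkx6-1, a progenitor and beta cell factor singled out after its values were seen, completed the 3 called of 33 tested members. It stood at 3.39 and 3.72 CPM in control libraries and at 0.579, 0.555 and 0.922 CPM with EGF, against 1.77, 1.90 and 1.57 and then 1.06, 1.75 and 1.34 CPM with Arid1a siRNAs, and its difference (2.03 ± 0.37, adjusted p = 0.016) was not called without control+EGF 1 (adjusted p = 0.0661), control+EGF 2 (adjusted p = 0.0547) or siArid1a+EGF 2 (adjusted p = 0.0583). With control siRNA EGF lowered 14 and raised 3 members of the list, with Arid1a siRNAs it lowered 5 and raised 3, and the median response was -0.28 with control siRNA and -0.13 with Arid1a siRNAs. Over all tested genes, EGF lowered 18.8% and raised 16.8% with control siRNA, and lowered 10.4% and raised 13% with Arid1a siRNAs. A difference was called in 0.944% of all tested genes. An unadjusted p under 0.05 in edgeR was found for 13 of the 33 list members (39.4%), against 9.72% of all tested genes.

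Acinar identity genes gave no called difference in the edgeR fit of the 4 groups. None of 34 tested digestive enzyme and secretory genes passed in edgeR (4 at an unadjusted p under 0.05, and DESeq2 called Aqp8), and none of 21 acinar transcription factors (3 unadjusted, 0 with DESeq2). Over all tested genes, 0.944% were called and 9.72% had an unadjusted p under 0.05, so 0 calls in lists this short does not set them apart. Among genes called with control siRNA, 17 of 20 enzyme genes and 10 of 11 factors had the weaker estimate with Arid1a siRNAs (all tested 4319 of 4744). EGF lowered 18 and raised 2 of the enzyme genes with control siRNA and lowered 13 and raised 1 with Arid1a siRNAs, with median responses of -0.59 with control siRNA and -0.39 with Arid1a siRNAs. The shares lowered over all tested genes were 18.8% with control siRNA and 10.4% with Arid1a siRNAs. Cpa1, which encodes carboxypeptidase A1, was at 839 and 872 CPM in control libraries and 591, 612 and 633 CPM with EGF, against 639, 691 and 801 and 533, 557 and 539.5 CPM with Arid1a siRNAs. Its falls of -0.48 and -0.39 had a difference inside -0.12 to 0.31. Bhlha15 (Mist1), a factor of acinar secretory structure, rose by 1.15 and 0.57, and the difference missed the threshold (edgeR adjusted p = 0.29), except without control 2 (adjusted p = 0.0468) and with the within-group component in the fit (adjusted p = 0.00342). Ptf1a and Nr5a2, factors that hold the acinar programme, had differences of 0.24 and -0.17 (adjusted p = 0.399 and 0.817), and Ptf1a was called with that component in the fit (adjusted p = 0.00676). Sox9, the ductal and progenitor factor, rose from 38.8 and 59.3 to 102, 91.5 and 105 CPM with control siRNA and from 38.6, 41.5 and 44.02 to 52.5, 54.3 and 56.1 CPM with Arid1a siRNAs. The groups with EGF were far apart, but control 2 lay above every library with Arid1a siRNAs and EGF, and the Sox9 difference of -0.64 ± 0.18 was not called (edgeR adjusted p = 0.154). Its call depended on the control libraries: without control 2 it was -0.97 and was called, without control 1 it was -0.36 and was not, and DESeq2 called it (adjusted p = 0.043). The sum of 6 ductal markers, mostly Sox9, was 55.5 to 78.5, 117 to 129, 53.7 to 59.2 and 77.9 to 85.9 CPM in the groups in their order, and Krt19 stayed at or below 2.15 CPM. Among 30 ductal and metaplasia genes, 15 responded alike in direction without a called difference, and Vim was the called member. Nfatc1, a calcineurin-dependent factor, had a difference of 0.18 (adjusted p = 0.78).

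Wipi1 lost its response, with the largest difference among called rises of mean log2 CPM 3 or more. WIPI1 binds phosphatidylinositol 3-phosphate on the membranes from which autophagosomes form. Wipi1 was measured at 18.4 and 23.6 CPM with control siRNA and 69.1, 57.4 and 67.5 CPM after EGF, against 13.4, 15.3 and 13.7 CPM with Arid1a siRNAs and 15.3, 11.8 and 15.9 CPM with both. The libraries with control siRNA and EGF stood far above all 8 others, and those with Arid1a siRNAs overlapped with and without EGF. The response was 1.63 with control siRNA and 0.01 with Arid1a siRNAs, a difference of -1.62 ± 0.19 (SE; adjusted p = 0.00128). Atg9b, which encodes a lipid scramblase of autophagy, rose from 11.5 and 12.8 to 30.2, 29.00 and 28.9 CPM and from 19.2, 18.4 and 18.4 to 27.8, 27.7 and 28.3 CPM. Its difference of -0.70 ± 0.12 (SE; adjusted p = 0.00982) was not called without control 1 (adjusted p = 0.0687). These were the 2 called of 51 tested autophagy and lysosome genes, of which 11 responded within 1.5-fold of each other and the median response was -0.09 with control siRNA and -0.07 with Arid1a siRNAs. Over all tested genes, 14.1% responded within 1.5-fold and 0.944% had a called difference.

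Ccng2, Cdkn1c, Trp53inp1 and Bcl2l11, which are linked to cell cycle arrest or cell death, fell less with Arid1a siRNAs. Ccng2 encodes cyclin G2, a cyclin of resting cells. Ccng2 was at 60.1 and 61.5 CPM with control siRNA and 22.3, 21.3 and 24.7 CPM after EGF, against 52.2, 49.6 and 50.2 CPM with Arid1a siRNAs and 30.6, 32.1 and 30.4 CPM with both. No groups overlapped, and with EGF the Ccng2 level was higher with Arid1a siRNAs in 3 of 3 libraries. Its response was -1.42 and -0.71, a difference of 0.71 ± 0.10 (SE; adjusted p = 0.00499). Cdkn1c, which encodes the CDK inhibitor p57, fell (log2 responses -0.77 and -0.29), with a difference of 0.48 ± 0.11 (SE; adjusted p = 0.0464), and was not called when any 1 library other than siArid1a 3 was left out (adjusted p from 0.0602 to 0.142). They were 2 of 20 tested G1 genes. Trp53inp1, a p53 target that promotes death and autophagy, fell from 193 and 212 to 103, 91.1 and 84.2 CPM and from 134, 137 and 119 to 95.6, 94.2 and 88.5 CPM. The groups with EGF overlapped, and the difference of 0.64 ± 0.11 (SE; adjusted p = 0.0143) was not called without siArid1a+EGF 1 (adjusted p = 0.054). Bcl2l11, which encodes the death-promoting protein BIM, a target of ERK, fell (log2 responses -0.99 and -0.45). Its difference of 0.54 ± 0.11 (SE; adjusted p = 0.0241) was not called when any 1 library other than control 2, siArid1a 2, siArid1a 3 or siArid1a+EGF 1 was left out (adjusted p from 0.0586 to 0.104). Aen, a p53-induced nuclease, was in the opposite class: its rise of 1.16 was 0.71 with Arid1a siRNAs, a difference of -0.45 ± 0.09 (SE; adjusted p = 0.0337) not called when any 1 library other than control 1 or siArid1a 3 was left out (adjusted p from 0.0538 to 0.113). The p53 list thus had 1 called member in each direction among 33. So did the list of BCL2 family and death receptor genes among 27, with Bcl2l11 and Tnfrsf12a (difference -0.70). For Cdkn1c and Bcl2l11, Arid1a siRNAs lowered the level before EGF (log2 -0.52 and -0.64). Their levels with EGF did not differ detectably between the siRNAs (-0.04 and -0.10). None of 63 G2/M genes or 57 S-phase genes was called in edgeR or DESeq2 (5 and 3 at an unadjusted p under 0.05), and 31 of the G2/M genes responded with both siRNAs within 1.5-fold of each other. Over all tested genes, 14.1% responded within 1.5-fold, and 9.72% had an unadjusted p under 0.05 in edgeR.

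H2-T23 and Tapbp were the called members among 82 tested interferon response genes, of which EGF lowered 35 with control siRNA and 30 with Arid1a siRNAs. Over all tested genes, 0.944% had a called difference, and EGF lowered 18.8% with control siRNA and 10.4% with Arid1a siRNAs. H2-T23 encodes Qa-1, a nonclassical MHC class I molecule, and is close in sequence to other class I genes, so its count is uncertain. The promoter window of H2-T23 (chr17:36032652-36032951, minus strand, GRCm38.p6, 5′ to 3′) is shown because it holds the interferon response word (GAAA, any 2 bases, GAAA), in capitals and read on the opposite strand:
H2-T23: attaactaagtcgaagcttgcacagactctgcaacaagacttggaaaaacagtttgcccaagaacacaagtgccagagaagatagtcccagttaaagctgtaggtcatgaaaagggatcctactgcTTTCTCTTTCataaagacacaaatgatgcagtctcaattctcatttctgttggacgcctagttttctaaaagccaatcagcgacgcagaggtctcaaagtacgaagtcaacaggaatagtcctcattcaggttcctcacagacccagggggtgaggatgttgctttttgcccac
H2-T23 was measured at 29.4 and 27.2 CPM with control siRNA and 23.2, 23.5 and 22.8 CPM after EGF, against 42.6, 43.98 and 48.7 CPM with Arid1a siRNAs and 55.1, 59.2 and 56.9 CPM with both. No groups overlapped, and EGF moved the gene in opposite directions, by -0.29 and by 0.34. The difference was 0.63 ± 0.11 (SE; adjusted p = 0.0108), not called without control 1 (adjusted p = 0.0647). Tapbp encodes tapasin, which loads peptides onto MHC class I, and fell (log2 responses -0.89 and -0.45), with a difference of 0.44 ± 0.09 (SE; adjusted p = 0.0322) that was not called when any 1 library other than control 2, control+EGF 2, siArid1a 3 or siArid1a+EGF 3 was left out (adjusted p from 0.0678 to 0.137). 27 interferon genes moved the same way with both siRNAs without a called difference, 20 of them within 1.5-fold, and the median response was -0.32 with control siRNA and -0.27 with Arid1a siRNAs. Over all tested genes, 14.1% responded within 1.5-fold. Without EGF, Arid1a siRNAs raised 56 and lowered 3 members, where 18.8% and 20.1% of all tested genes were raised and lowered.

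Promoter windows were searched for 4 short words. RefSeq promoter windows were found by symbol for 103 of 126 called genes and for 78.9% of all tested genes, which is under 80%, so that shares are given as a description and their comparison is void. TGANTCA was in 5 windows of called genes (4.85%; all tested 5.99%), among them those of Dll1 and Elf1. The ETS word CCGGAAGT was in 1 (0.971%; all tested 8.94%), and the interferon word in 3 (2.91%; all tested 3.35%). The CArG box, bound by serum response factor, was in 0 of 103 windows of called genes and 1.55% of all. Both strands were searched, the words were counted separately, so that 1 stretch could count for more than 1 word, and a window without a word says only that these letters are not in it.

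Of the 126 called genes, 39 stand in one of the 42 gene lists and 87 in none, and many of the clearest weakened falls belong to the latter. SSTR2 is a somatostatin receptor. Sstr2 fell from 82.4 and 84.5 to 24.6, 26.5 and 23.4 CPM with control siRNA and from 61.8, 62.8 and 62.9 to 31.5, 30.6 and 31.4 CPM with Arid1a siRNAs, with no overlap between groups and a difference of 0.74 ± 0.09 (SE; adjusted p = 0.00177). Adrb1, the beta-1 adrenergic receptor, had a response of -1.80 and -0.54 (difference 1.26 ± 0.18, adjusted p = 0.00499). Both are G protein-coupled receptors. Penk, which encodes the precursor of enkephalin peptides, fell from 333 and 341 to 137, 141 and 139 CPM and from 433, 466 and 535 to 313, 323 and 308 CPM with Arid1a siRNAs, so that with Arid1a siRNAs and EGF it lay just below the control libraries. Its difference was 0.68 ± 0.10 (SE; adjusted p = 0.00499). Olfml2b, an olfactomedin-domain gene, fell (log2 responses -2.27 and -1.18), and its difference (1.09 ± 0.13, adjusted p = 0.00129) exceeded 2-fold. Fam13a fell (log2 responses -2.30 and -1.26), G0s2, which encodes an inhibitor of the lipase ATGL, did so as well (-1.59 and -0.77), as did Apol7a (-2.18 and -1.09). Their edgeR adjusted p-values for the difference were 0.00623, 0.0107 and 0.0105, and Apol7a belongs to a family of similar genes and is uncertain. Elf1, an ETS factor, fell (log2 responses -1.59 and -0.73) (adjusted p = 0.0108 in edgeR). Shb, a signalling adaptor, lost its fall: it went from 192 and 199 to 152, 149 and 161 CPM with control siRNA, and from 188, 184 and 198 to 203, 216 and 212 CPM with Arid1a siRNAs (difference 0.50 ± 0.08, adjusted p = 0.00673). Sstr2, Adrb1, Penk, Olfml2b, Fam13a, G0s2, Apol7a, Elf1 and Shb were each called whichever library was left out. The falls of Synpo2, Omp and Nptxr had differences of 1.29, 1.25 and 1.42, and their calls depended on single libraries. Synpo2 was not called without control+EGF 3 (adjusted p = 0.0558) or siArid1a+EGF 1 (adjusted p = 0.056), Omp not without control 1, control+EGF 1, siArid1a 1 or siArid1a+EGF 1 (adjusted p from 0.0503 to 0.0671), and Nptxr not without control 1 (adjusted p = 0.0752) or control+EGF 1 (adjusted p = 0.0586).

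Among weakened rises outside the lists, Phlda1, a pleckstrin-homology protein induced by growth factors, had the smallest adjusted p of those named here. Phlda1 was measured at 78.5 and 80.2 CPM with control siRNA and 204, 198 and 214 CPM after EGF, against 80.9, 77.6 and 85.4 CPM with Arid1a siRNAs and 127, 131 and 133 CPM with both. Its groups without EGF overlapped, those with EGF did not, and its response was 1.37 and 0.68, a difference of -0.69 ± 0.08 (SE; adjusted p = 0.00129). Dok7, an adaptor of the muscle kinase MuSK, rose by 2.40 and 1.43, and Igsf21, an immunoglobulin-domain gene, by 2.54 and 1.59. Their differences were -0.97 ± 0.15 (SE; adjusted p = 0.00636) and -0.95 ± 0.17 (SE; adjusted p = 0.012). Gulo, which makes vitamin C in mice, rose from 15.2 and 17.7 to 51.8, 49.97 and 47.5 CPM and from 19.5, 23.7 and 22.4 to 38.04, 36.3 and 38.1 CPM, higher before EGF and lower after it with Arid1a siRNAs (difference -0.84 ± 0.13, adjusted p = 0.00668). Daf2, which encodes a regulator of complement, rose by 2.35 and 1.04 (difference -1.31 ± 0.20, adjusted p = 0.00636). It is a near copy of Cd55, which was called as well (-0.54) and is named after its values were seen, not called when any 1 library other than control 2, control+EGF 2, siArid1a 2 or siArid1a 3 was left out (adjusted p from 0.0537 to 0.12), and reads may be split between them. Phlda1, Dok7, Igsf21, Gulo and Daf2 were each called whichever library was left out.

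Gpm6b, a membrane glycoprotein gene named after its values were seen, rose from 3.19 and 3.72 to 12.3, 9.32 and 11.3 CPM with control siRNA and stood at 3.54, 3.99 and 4.26 CPM and then 5.21, 4.61 and 5.02 CPM with Arid1a siRNAs. Its responses were 1.67 and 0.33, and the difference of -1.35 ± 0.23 (SE; adjusted p = 0.0108) was not called without control 1 (adjusted p = 0.0717). Arsg, a sulfatase gene named likewise and between 0.910 and 3.48 CPM in the 11 libraries, had responses of 1.19 and -0.55, a difference of -1.74 ± 0.37 (SE; adjusted p = 0.0392), not called when any 1 library other than control 2, control+EGF 2, siArid1a 2 or siArid1a+EGF 2 was left out (adjusted p from 0.0651 to 0.193). Gpm6b overlaps Ofd1 and Arsg overlaps Slc16a6. Rgma, which encodes a BMP co-receptor, fell from 112 and 123 to 84.6, 80.9 and 86.3 CPM with control siRNA and overlapped without and with EGF under Arid1a siRNAs, at 133, 141 and 132 and 141, 131 and 136 CPM. The difference for Rgma was 0.49 ± 0.09 (SE; adjusted p = 0.012), not called without siArid1a 1 (adjusted p = 0.052). Pnrc1, a nuclear receptor coactivator gene, went from 48.7 and 42.3 to 25.4, 24.6 and 27.8 CPM with control siRNA, below the other 8 libraries, and from 43.7, 43.5 and 48.1 to 38.5, 44.8 and 42.9 CPM with Arid1a siRNAs. Its difference of 0.72 ± 0.13 (SE; adjusted p = 0.0123) was not called without control 1 (adjusted p = 0.0704) or control+EGF 1 (adjusted p = 0.0534). Among lost rises, Cpn1, a carboxypeptidase subunit, Ak1, an adenylate kinase, and Parm1 had log2 responses of 0.39, 0.57 and 0.59 with control siRNA and 0.04, 0.07 and 0.05 with Arid1a siRNAs. Each lost its call in most fits that left out a library: Cpn1 when any 1 library other than siArid1a 1 or siArid1a 3 was left out (adjusted p from 0.0537 to 0.134), Ak1 when any 1 library other than siArid1a 2 was left out (adjusted p from 0.0672 to 0.142), and Parm1 when any 1 library other than control 2, control+EGF 2 or siArid1a 3 was left out (adjusted p from 0.0984 to 0.211).

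Beside Cxcl12 and H2-T23, EGF moved Cdca7l, Hdac11 and Cno in opposite directions with the different siRNAs, as it did Far2 and 2410127L17Rik, which are named after their values were seen. Far2 was not called when any 1 library other than control 2, siArid1a 3 or siArid1a+EGF 2 was left out (adjusted p from 0.0662 to 0.126), nor 2410127L17Rik when any 1 library other than control 2, siArid1a 1 or siArid1a+EGF 2 was left out (adjusted p from 0.0586 to 0.176). Cdca7l, a MYC-interacting gene, rose from 76.5 and 78.9 to 96.8, 98.2 and 96.2 CPM and fell from 62.1, 67.3 and 64.9 to 56.5, 58.1 and 56.2 CPM with Arid1a siRNAs. No groups overlapped, and the difference was -0.51 ± 0.08 (SE; adjusted p = 0.00713). Hdac11, a class IV histone deacetylase, fell from 52.7 and 57.8 to 48.7, 44.4 and 43.2 CPM and rose from 81.4, 82.4 and 77.6 to 101, 96.9 and 96.5 CPM. These groups did not overlap either, and the difference was 0.57 ± 0.09 (SE; adjusted p = 0.0102). Cno, a subunit of the BLOC-1 complex, had a difference of 0.64 ± 0.12 (SE; adjusted p = 0.0223) and was not called when any 1 library other than control 2, control+EGF 2, siArid1a 1, siArid1a 3 or siArid1a+EGF 1 was left out (adjusted p from 0.0534 to 0.104). A stronger or new EGF response with Arid1a siRNAs was called for 1 gene each, and both calls depended on most of the libraries. Usp43, a ubiquitin protease gene, rose by 0.58 with control siRNA and 1.41 with Arid1a siRNAs, a difference of 0.82 ± 0.18 (SE; adjusted p = 0.0477), not called when any 1 library other than control+EGF 2 was left out (adjusted p from 0.079 to 0.139). 1110008F13Rik, a clone-type symbol singled out after its values were seen, had responses of 0.06 and 0.67, a difference of 0.61 ± 0.13 (SE; adjusted p = 0.0472), not called when any 1 library other than siArid1a 1 or siArid1a 3 was left out (adjusted p from 0.0517 to 0.161).

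Most genes that responded with both siRNAs did so without a called difference. There were 2571 such genes by edgeR, and for 1879 of them (1126 rises and 753 falls) the 95% interval of the difference lay inside 1.5-fold either way, which leaves room for weakening smaller than that. Of the 2571 genes, 2152 had the larger estimate with control siRNA. A further 2495 genes were called with 1 siRNA only, without a called difference, and count as neither lost nor gained. By the mean of both responses, and among genes of mean log2 CPM 3 or more, Gprc5a, an orphan receptor induced by retinoic acid, was the largest rise held within 1.5-fold. Gprc5a was measured at 5.46 and 4.94 CPM with control siRNA and 43.5, 43.00 and 45.7 CPM after EGF, against 5.60, 6.14 and 6.70 CPM with Arid1a siRNAs and 55.2, 50.3 and 58.04 CPM with both. Its responses of 3.07 and 3.14 had a difference of 0.07 (95% interval -0.25 to 0.40), and every library with EGF lay above every library without. Beside Dusp5, the largest rises held in this way included Begain (1.64 and 1.53), Cav2, a caveolin (1.44 and 1.70), Tubb6, a beta-tubulin (1.60 and 1.35), and Apcdd1, a Wnt inhibitor (1.42 and 1.53). Pon2, a paraoxonase, rose by 1.54 and 1.24, and Asb4, a ubiquitin ligase adaptor, by 1.38 and 1.195. The largest falls held included Cdc42ep3, an effector of CDC42 (-1.34 and -1.35), Rassf4 (-1.11 and -0.87), Lmo3 (-1.08 and -0.87) and Sgpp2, a sphingosine phosphate phosphatase (-0.96 and -0.98). They also included Derl3, which acts in disposal of misfolded proteins (-1.04 and -0.85), Pde9a (-0.93 and -0.92), Aldh6a1 (-0.93 and -0.91) and Dram1 (-0.95 and -0.78).

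The growth and biosynthesis lists held between 0 and 1 called gene each, where 0.944% of all genes were called, a share that 1 call in lists of this size exceeds. EGF raised 16.8% of all tested genes with control siRNA and 13% with Arid1a siRNAs. Of the same genes, 14.1% responded within 1.5-fold, and 9.72% had an unadjusted p under 0.05 in edgeR. Of 51 Myc and ribosome biogenesis genes, EGF raised 43 with control siRNA and 42 with Arid1a siRNAs, 40 responded within 1.5-fold, and Mybbp1a, a nucleolar MYB-binding protein gene, was the called member. The median response of that list was 0.66 with control siRNA and 0.49 with Arid1a siRNAs, 23 members had an unadjusted p under 0.05, and DESeq2 called 4 (Ddx21, Mybbp1a, Ncl and Wdr43). Mybbp1a rose by 1.03 and 0.72 (difference -0.31 ± 0.06, adjusted p = 0.0336) and was not called when any 1 library other than siArid1a 3 was left out (adjusted p from 0.0701 to 0.12). Of 47 amino acid response genes, 27 responded within 1.5-fold, with medians of 0.39 with control siRNA and 0.36 with Arid1a siRNAs, and Shmt1, an enzyme of the folate cycle, was called. Its difference of -0.35 ± 0.07 (SE; adjusted p = 0.037) was not called when any 1 library other than siArid1a 3 was left out (adjusted p from 0.0651 to 0.119). None of 26 cholesterol synthesis genes was called in edgeR or DESeq2 (0 at an unadjusted p under 0.05), 17 rose with Arid1a siRNAs and 15 with control siRNA, and the medians were 0.26 with control siRNA and 0.29 with Arid1a siRNAs. None of 34 unfolded protein response genes was called by either tool (2 unadjusted), with medians of 0.16 with control siRNA and 0.16 with Arid1a siRNAs and 16 members within 1.5-fold. Acacb, an acetyl-CoA carboxylase, was the called member of 20 fatty acid synthesis genes (0.64 ± 0.14, adjusted p = 0.0471), and Ndrg1, a stress- and hypoxia-induced gene, that of 37 glycolysis and hypoxia genes (0.57 ± 0.13, adjusted p = 0.0472). Acacb was not called when any 1 library other than siArid1a 2 was left out (adjusted p from 0.0579 to 0.151), and Ndrg1 not when any 1 library other than control+EGF 3, siArid1a 3 or siArid1a+EGF 2 was left out (adjusted p from 0.0856 to 0.159). No member was called among 29 SWI/SNF subunits, 25 YAP and TEAD targets, 23 TGF-beta, 19 BMP, 26 Wnt, 23 NF-kB, 12 NFAT or 38 PPAR genes by edgeR at the adjusted threshold. At an unadjusted p under 0.05 these lists held 1, 9, 3, 3, 4, 2, 2 and 7, in that order, and DESeq2 called Angptl4 of the PPAR list and none of the others. The unadjusted share was 36% for the YAP and TEAD list and from 3.45% (SWI/SNF) to 18.4% (PPAR) for the others. It was 45.1% for the Myc list, against 9.72% of all tested genes.

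**Figure D3:**
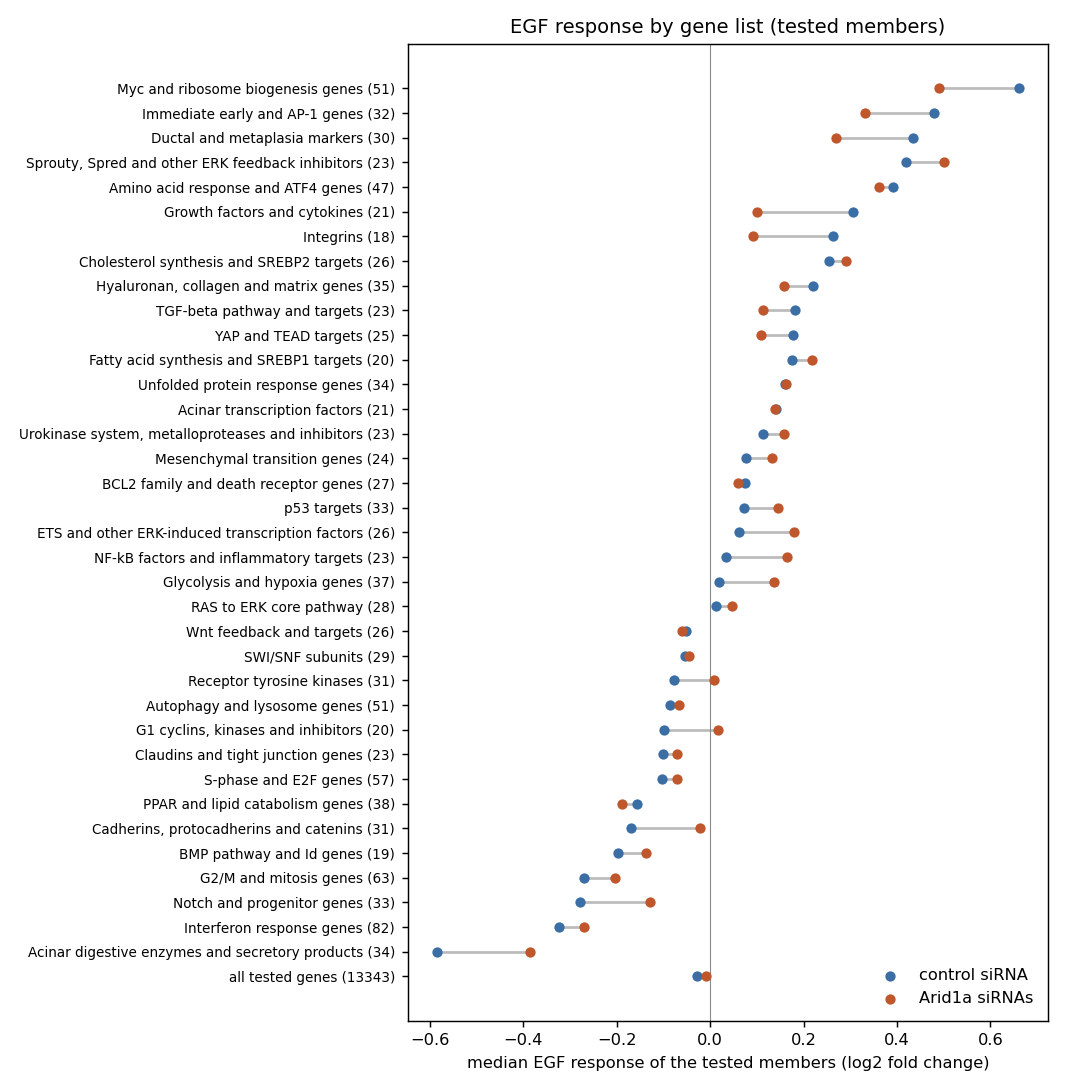
Median EGF response (x axis, log2 fold change) over the tested members of each gene list with at least 15 of them, with control siRNA and with Arid1a siRNAs, and the number of tested members in brackets. The highest median is that of the Myc and ribosome list with control siRNA (0.66) and of the ERK feedback list with Arid1a siRNAs (0.50). The acinar enzyme list has the lowest median with both, and the bottom row gives all 13343 tested genes.

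Weakened responses came with levels that differed before EGF, after EGF or both. Of 51 weakened rises, Arid1a siRNAs lowered the level with EGF in 40, raised the level before EGF in 25, and did both in 14. Of 73 weakened falls, they raised the level with EGF in 55, lowered the level before EGF in 33, and did both in 15. Over all tested genes, the siRNAs changed 38.9% without EGF (18.8% raised, 20.1% lowered) and 46.9% with EGF (23.7% raised, 23.2% lowered). A weakened response requires a shift of this kind before or with EGF, so an excess over these shares is not a result. Dusp6 (0.19 without EGF and -0.74 with EGF, log2 effect of the siRNAs), Egr1 (0.12 and -0.68) and Phlda1 (0.03 and -0.66) differed after EGF and not detectably before it. Hbegf (1.02 and -0.04), Has2 (1.27 and 0.16), Maff (0.99 and 0.06) and Col15a1 (0.97 and -0.10) differed before EGF, with levels after it that did not differ detectably. Klf4 (0.47 and -0.55), Spry1 (0.45 and -0.89) and Cxcl12 (0.49 and -0.41) were raised before EGF and lowered with it. Among falls, Nrarp (0.04 and 0.89) and Apol7a (0.07 and 1.17) differed after EGF, Dll1 (-0.73 and -0.09) and Trp53inp1 (-0.64 and -0.0014) before it, and Pcdh8 (-0.39 and 1.001) and Grhl3 (-0.46 and 0.55) at both times in opposite directions. These comparisons share libraries with the difference itself and describe where it lies.

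**Figure D4:**
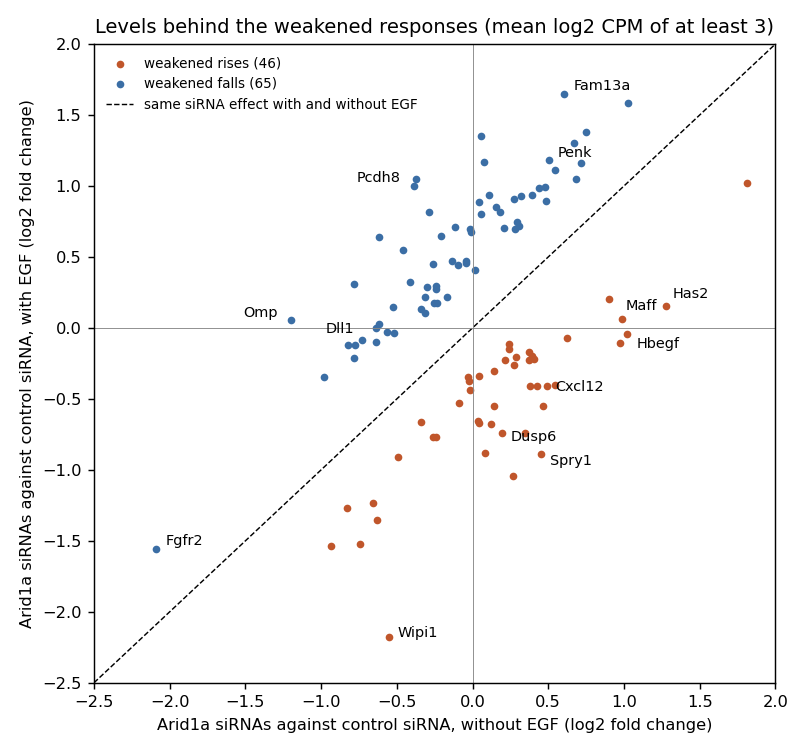
Effect of Arid1a siRNAs on the level of each gene with a weakened EGF response and a mean log2 CPM of at least 3, without EGF (x axis) and with EGF (y axis), as log2 fold change. Weakened rises lie below the dashed line of equal effects and weakened falls above it. Points near the vertical zero line, such as Dusp6, differed mainly after EGF.

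The gene models of some named genes overlap those of a neighbour, compared over whole spans with introns included. In RefSeq gene models of GRCm38.p6, Tnfrsf12a overlaps Hcfc1r1, Atg9b overlaps Nos3, Elf1 overlaps Wbp4, Sstr2 overlaps Slc39a11, Mybbp1a overlaps Spns2, and Omp lies within Capn5, all of them tested. Rgma overlaps A730056A06Rik, H2-T23 overlaps A930015D03Rik and Far2 overlaps Ergic2, which were tested as well. The library kit does not mark strand, so reads of such pairs cannot be told apart where they overlap, and their values are uncertain to that extent.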

How the data were processed

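Polyadenylated RNA of 11 libraries of 266-6 cells was sequenced after TruSeq RNA v2 preparation, per the labels' protocols. The deposited tables hold raw read counts per gene symbol made by the authors, 1 table per library, with 23284 symbols and 10279763 to 19773007 counted reads. The submitters' processing notes name TopHat2 2.1.1, HTSeq 0.9.1, Cuffnorm 2.2.1.2, Cuffdiff 2.2.1.5 and the build mm9, and the annotation and counting settings are not given in the sources used here. A normalised table of the series was not used, because its 12 sample columns include more controls than the labels give.

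Genes passed edgeR's filter at a minimum count of 10 and a minimum total of 15. The 4 group means were fitted on all 11 libraries with TMM factors by edgeR 4.0.16 (quasi-likelihood, R 4.3.3), and the difference of EGF responses, each response and each siRNA effect were tested as contrasts, with Benjamini-Hochberg adjustment over 13343 genes. A gene was called at an adjusted p under 0.05. Lost, reduced, reversed, enhanced and gained genes have a called difference, and kept genes respond with both siRNAs in the same direction without one. A response within 1.5-fold is a kept one whose 95% interval of the difference lies inside that bound. The test was run on simulated counts before use. DESeq2 1.42.0 and limma 3.58.1 (voom) served as alternatives, beside other scalings and filters, a replicate block, each library left out, and a within-group component added after seeing the data. More reads narrow the counting error, but 2 to 3 libraries per group set the precision of most genes.

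Named genes are the 15 largest differences in each direction, the 5 smallest p-values per class and direction, the 8 largest rises and falls within 1.5-fold, up to 3 called members per list, and a panel, all but the panel at mean log2 CPM 3 or more. The lists, the panel and the comparison itself were chosen with earlier results of these data known. Promoter windows and gene overlaps come from RefSeq tables of GRCm38.p6, matched by symbol, and no coordinate was converted from mm9.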

Additional observations from a re-analysis of the deposited data

Results flagged for a closer look

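The EGF response differed between the siRNAs by the test of the difference itself in 126 genes. With control siRNA taken from Arid1a siRNAs, the largest positive differences (log2) were those of Nptxr (1.42), Pcdh8 (1.39), Synpo2 (1.29), Adrb1 (1.26), Omp (1.25), Klf2 (1.11), Olfml2b (1.09), Apol7a (1.09), Fam13a (1.04), Grhl3 (1.01), Elf1 (0.86), Nrarp (0.85), Pcdh15 (0.83), G0s2 (0.82) and Usp43 (0.82), among genes of mean log2 CPM 3 or more. EGF lowered all of these with control siRNA except Usp43, which it raised.

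Under the same limit on level, the largest negative differences were those of Wipi1 (-1.62), Spry1 (-1.34), Daf2 (-1.31), Has2 (-1.12), Etv4 (-1.09), Col15a1 (-1.08), Hbegf (-1.06), Klf4 (-1.02), Dok7 (-0.97), Igsf21 (-0.95), Dusp6 (-0.94), Maff (-0.93), Cxcl12 (-0.90), Gulo (-0.84) and Egr1 (-0.80), all raised by EGF with control siRNA.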

How the results depend on the processing

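The 126 differences had the same sign in each of 20 alternatives, except that 125 were tested under the stricter filter, and 39 genes (18 rises and 21 falls, all weakened) were called in each. Leaving out 1 library at a time gave 30 to 92 positive and 21 to 61 negative differences, 5 to 44 lost, 46 to 98 reduced, 3 to 9 reversed, 0 to 1 enhanced and 0 to 5 gained responses, 3648 to 5039 EGF responses with control siRNA and 2217 to 3399 with Arid1a siRNAs, and 1317 to 1756 responses within 1.5-fold. With a replicate block there were 31 positive and 25 negative differences, 8 lost, 42 reduced, 0 enhanced and 0 gained responses. No label says whether libraries with the same replicate number share more than that number. Their deviations from the group means correlated between -0.707 and 0.627. Those of libraries with different numbers correlated between -0.627 and 0.707, and these ranges do not settle the point. When the within-group component entered the fit, chosen after seeing the data, there were 521 positive and 319 negative differences, 230 lost, 524 reduced, 29 reversed, 12 enhanced and 43 gained responses, 5252 EGF responses with Arid1a siRNAs and 3214 responses within 1.5-fold. DESeq2 gave 84 negative differences, 43 lost, 0 enhanced and 4 gained responses. The enhanced response numbered 0 under RLE and upper-quartile scaling, without a filter, with limma-voom and with edgeR's newer quasi-likelihood method, and the gained response 0 under RLE and upper-quartile scaling and the stricter filter and 3 without a filter. The cause of these shifts was not tested, except that leaving out a library leaves fewer samples and the component takes up spread within groups. For named genes, 231 of the values under alternatives lost the call of the main fit, 8 were newly called and 1559 stayed on the same side of the threshold. The 2 control libraries limit the precision of every difference, and a miss does not show that responses were alike.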
